A study of Vitis vinifera with 40 samples.

Results

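The genes described here are the 150 grapevine genes whose counts peaked most steeply in the second cotyledonary stage (C2) of somatic embryogenesis, out of 29971 genes counted. They were chosen from these measurements. Counts were divided by median-of-ratios size factors, 1 was added to each stage mean, and genes with their highest mean in C2, of 100 or more, were ranked by that mean over the second highest stage mean. In all, 1101 genes peaked in C2 at this level, and the first 150 were kept, so that their height in C2 is how they were chosen and not a result. The other 951 serve below as a comparison.

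The study followed somatic embryos of *Vitis vinifera* "Malvasia Istriana", which arise from immature anthers in culture and not from a fertilised egg, through 12 stages in 40 libraries of ribosomal RNA-depleted RNA. Cultures at early induction (EI), before the globular stage (PG) and at both globular stages (G1, G2) grew on auxin in constant dark. Heart (H), torpedo 1 and 2 (T1, T2) and cotyledonary 1 (C1) embryos grew without hormones in constant dark, and C2 embryos grew without hormones under long days. Seedlings (S), seedlings with an epicotyl (EP) and juvenile plants (JP) had gibberellin and long days. By the study's methods the induction medium also held a cytokinin, BAP, and the germination medium also held an auxin, IAA. C2 and EP had 5 libraries each and the other 10 stages had 3 each. All groups come from 1 cultivar. By the study's methods each sample held many individual embryos, and no number of plants is given separately for S, EP and JP. C1 and C2 differ in light and in developmental stage together, so that these cannot be told apart.

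In a seed, the cotyledonary phase is when the embryo fills its cotyledons with storage proteins and oil, becomes tolerant of drying under the control of abscisic acid, and then falls quiet until germination. A somatic embryo builds the same organs without a seed coat or endosperm around it. Light on such an embryo starts photomorphogenesis, in which plastids turn green and cotyledons open. The counts are of whole embryos or plants, so that more cells expressing a gene and more RNA per cell cannot be told apart.

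The files give identifiers of the form VIT_, chromosome, scaffold and gene number, without names or descriptions. None of the identifiers (0 of 29971) matched the RefSeq gene list at hand, and in the part of the study's tables at hand, which held gene ontology terms for 1075 genes, no member had a name and 4 members had terms. The stage labels could therefore not be checked against named storage protein or greening genes, and no role is given below for genes without a term.

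Library totals ran from 13774534 to 68058022 counts. C2 replicates 1 and 2 were the most alike of the replicate pairs: with at least 20 counts between both libraries, 89.2% of genes differed by less than the 95% counting limit, against 42.4% for C2 replicates 1 and 3. Whether they came from separate material is not stated. EP replicates 1 and 2 came next, with 85.9%. EP replicates 4 and 5 stood apart from the other 3 EP libraries, with the members taking 0.217% and 0.164% of counts there and 0.722%, 0.740% and 0.779% in replicates 1, 2 and 3.

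The members together took 3.11%, 3.52%, 3.69%, 2.90% and 3.07% of all counts in C2 replicates 1 to 5. All 5 C2 libraries lay above every other library, whose highest share was 1.96%, in T2 replicate 3. The S libraries followed with 1.11% to 1.54%, and the JP libraries held 0.220% to 0.324%. This sum rests on few genes, because 60.6% of the members' mean C2 level came from the 3 members with the most counts. The C2 mean ran from 102 to 220439 normalised counts with a median of 632, and 62 members had 1000 or more. The ratio to the second stage ran from 1.85 to 17.9 with a median of 2.46, and 16 members had a ratio of 5 or more. Size factors ran from 0.620 to 0.998 in C2 and from 1.02 to 2.01 in H, T1, T2 and C1. After division by them, every C2 library had a higher total than every library from EI to C1. Against those stages a ratio near 2 is therefore smaller when taken as a share of all counts. The normalised totals of S and of JP replicates 2 and 3 lay within the range of C2, and that of JP replicate 1 above it. In EP replicates 1, 2 and 3 the size factors were 0.271, 0.224 and 0.212, and the normalised totals exceeded every C2 library. In EP replicates 4 and 5 they were 1.88 and 3.48, and the totals lay below every C2 library. Set against C2, values in EP replicates 1, 2 and 3 are therefore smaller as shares of counts, and those in replicates 4 and 5 larger. Just inside the limit were VIT_18s0001g11170 with a ratio of 1.856 and VIT_09s0002g07010 with 1.854, and just outside were VIT_02s0012g01320 with 1.847 and VIT_05s0094g01520 with 1.841, so that the limit separates no distinct class of genes.

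**Figure D1:**
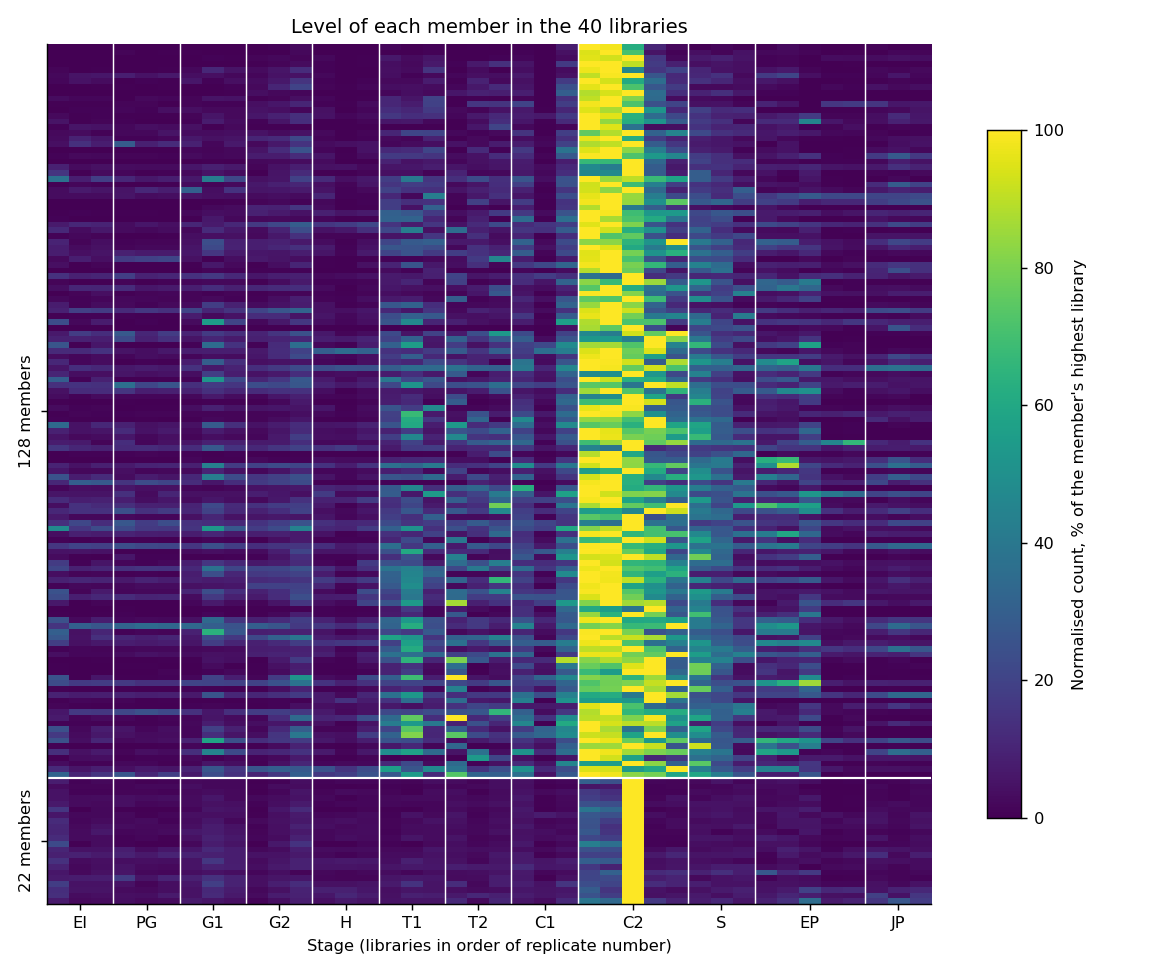
Each row is 1 of the 150 members and each column 1 of the 40 libraries, coloured by the normalised count as a percentage of that member's highest library. The upper block holds 128 members in order of their ratio, and the lower block the 22 members with more than 50% of their C2 sum in C2 replicate 3. In both blocks C2 replicates 4 and 5 are darker than C2 replicates 1, 2 and 3 in most rows.

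The second stage divided the members. It was S for 60 members (40%), T1 for 31, T2 for 13, C1 for 11 and EP for 9, and one of EI, PG, G1 and G2 for 20. Counted by condition, 74 members had a lit stage second, and 56 had a dark stage on hormone-free medium. The other 951 genes peaking in C2 had S second in 36.0% and T1 in 20.3%, close to the members' 40% and 20.7%. Over all members the median stage mean was 32.4% of the C2 mean in S, 20.3% in both T1 and C1, and 15.2% in T2. It was lowest in PG at 4.13%, in H at 5.58% and in JP at 6.55%. In between lay G2 with 12.9%, EP with 11.1%, G1 with 10.6% and EI with 8.37%. Part of the C2 level was thus already present in globular cultures and torpedo embryos in the dark. Less of it was present in the heart stage and in juvenile plants.

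The 60 members with S second had a median T1 mean of 15.2% of C2, a C1 mean of 20.4% and an S mean of 42.7%. The 31 members with T1 second had 42.9% in T1, 29.3% in C1 and 27.7% in S. In JP both were low, at 5.29% and 7.23%. These medians describe groups made from the same means and carry no test.

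The 10 members with the highest ratio were low elsewhere relative to C2, which is what the ranking selects. Not all were near 0 there, as VIT_11s0052g01730 had stage means of 215 in C1 and 208 in T2. VIT_01s0011g02360 on chromosome 1 had 587, 576, 367, 62.5 and 16 normalised counts in C2 replicates 1 to 5. In the other 35 libraries its median was 1.6 and its highest value 47.6, in C1 replicate 3, which lies above C2 replicate 5. Its ratio of 17.9 came from a C2 mean of 323 ± 273 (SD, n = 5).

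VIT_13s0067g03700 on chromosome 13 had 316, 334, 236, 18.1 and 3.0 normalised counts in the same 5 libraries. Its highest value elsewhere was 16.6, in S replicate 3. Replicates 1, 2 and 3 lay far above the other stages, replicate 4 barely, and replicate 5 lay below.

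VIT_11s0052g01730 had 2921, 2926, 2641, 507 and 254 normalised counts in C2 and at most 492 elsewhere, in C1 replicate 3. VIT_11s0052g01780, a few identifiers away on the same scaffold, had 1508, 1601, 1703, 603 and 220, and in C1 140, 0 and 511. Both genes were therefore near 0 in C1 replicate 2 and raised in C1 replicate 3. VIT_18s0001g05850 was the only one of the 10 with all 5 C2 libraries above every other library. It had 372, 382, 176, 59.5 and 77.2, against at most 57.7, in T1 replicate 3.

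VIT_12s0028g02550 on chromosome 12 carries the terms calcium:sodium antiporter activity and calcium ion binding, that is, exchange of calcium across a membrane. It had 214, 234, 236, 63.49 and 27.05 normalised counts in C2 and at most 49.2 elsewhere, in EP replicate 2. Its second stage was S with 25.9, 33.8 and 6.02, and replicate 5 fell within the range of S. The ratio was 6.82.

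VIT_09s0002g02460 had 2255, 2195, 2361, 375 and 54.1 normalised counts in C2 and 163, 208 and 122 in S. Its direct neighbour VIT_09s0002g02450 is also a member and carries the terms inorganic diphosphatase activity, phosphatidylcholine biosynthetic process and cellular response to phosphate starvation. Phosphatidylcholine is a main membrane lipid and a precursor of storage oil in seeds. This gene had 12038, 12019, 17931, 5959 and 1551 normalised counts in C2 and 3547, 2436 and 2306 in S. Both neighbours were at their lowest C2 value in replicate 5, where each lay below every S library.

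The 4 remaining members of the first 10 (VIT_14s0006g00260, VIT_19s0015g00560, VIT_05s0029g00970 and VIT_04s0023g02270) owed their rank to 1 library, C2 replicate 3, and are described with the genes like them below.

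**Figure D2:**
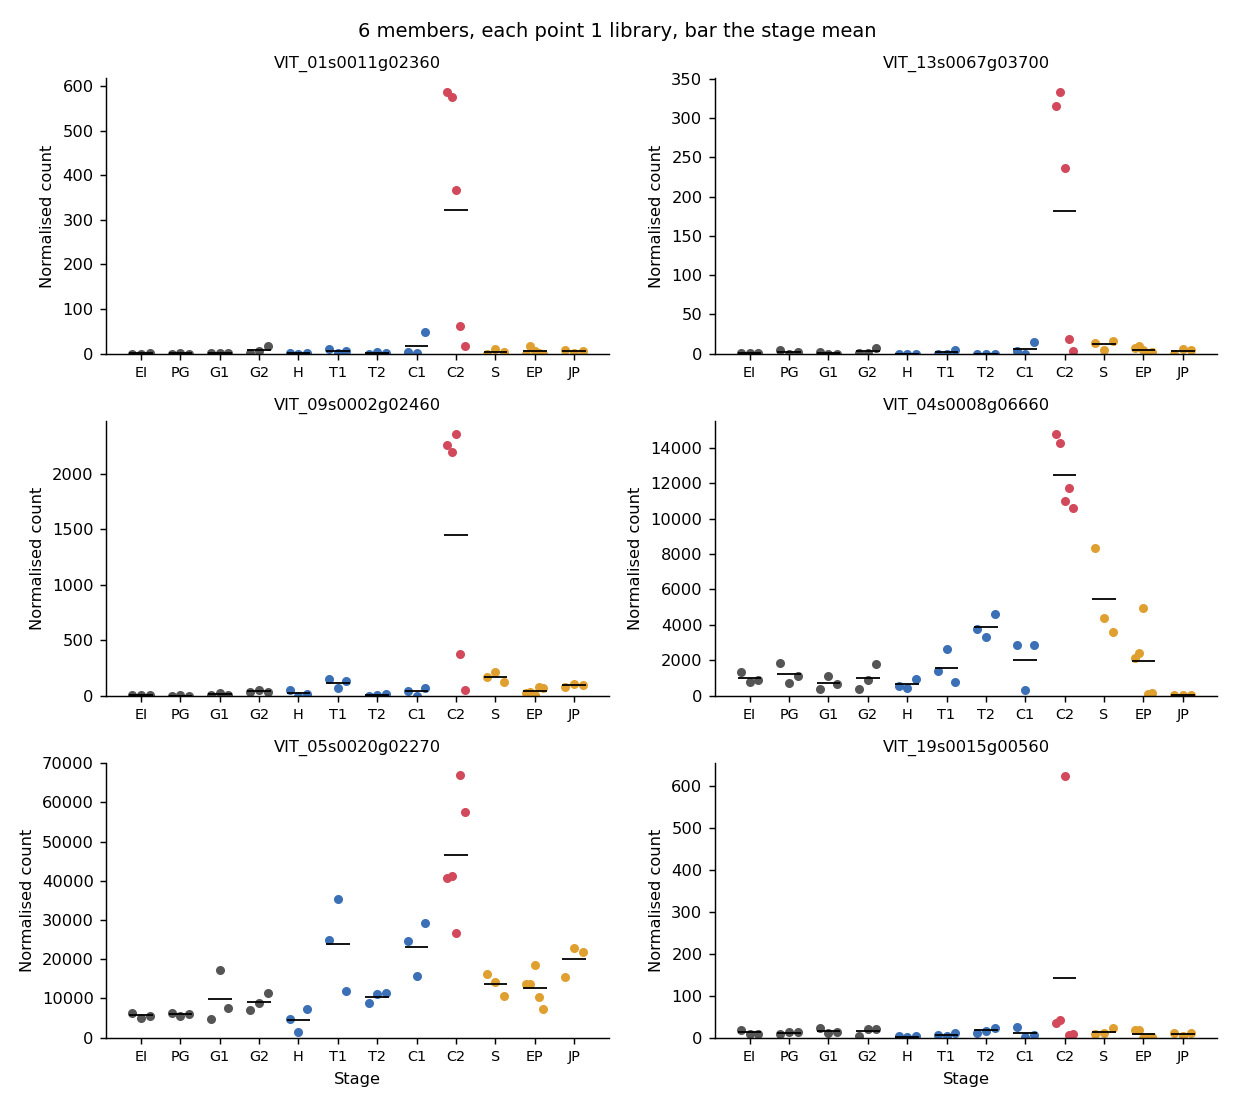
Normalised counts of 6 members in the 12 stages, each point 1 library and each bar the stage mean, with EI to G2 in grey, dark hormone-free stages in blue, C2 in red and S to JP in yellow. VIT_01s0011g02360 and VIT_13s0067g03700 are high in 3 C2 libraries, VIT_04s0008g06660 in all 5, and VIT_19s0015g00560 in C2 replicate 3 alone with 624.

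The members with the most counts had ratios near 2. These are numbers of reads and not levels per length, so that their order is not an order of abundance. VIT_02s0012g00700 on chromosome 2 had 261509, 305344, 220740, 116126 and 198471 normalised counts in C2, against at most 153893 elsewhere, in EP replicate 3. VIT_02s0012g00680, on the same scaffold with 1 gene between, had 204224, 277880, 170658, 106111 and 145456. In S the first had 129773, 60731 and 87548 and the second 91593, 49475 and 67588. Both were highest in replicate 2 and lowest in replicate 4.

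The genes directly before this pair also had their highest mean in C2. VIT_02s0012g00670, directly before VIT_02s0012g00680, had a C2 mean of 779001 but an EP mean of 633261, so that its ratio of 1.23 kept it out of the members. VIT_02s0012g00660 beside it is a member, with 1079, 1078, 875, 841 and 1109 in C2 and 619, 395 and 488 in S. VIT_02s0012g00690, between VIT_02s0012g00680 and VIT_02s0012g00700, had a C2 mean of 90.4, under the minimum. Whether reads were shared between near-identical copies in this stretch is stated in none of the sources read, so that the counts of single genes in it are uncertain.

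VIT_18s0001g03640 on chromosome 18 had 222450, 249186, 194341, 177287 and 255636 normalised counts in C2. In EP it had 182879, 154334 and 145385 in replicates 1, 2 and 3 but 8455 and 3336 in replicates 4 and 5, and the highest library outside C2 was T2 replicate 3 with 200580. C2 replicates 3 and 4 lay below that value. The study's gene age map places this gene at the level of *V. vinifera* itself, the youngest. A gene age was at hand for 24 members. Of these, 8 lay at the oldest level, 5 at levels 2 to 11 and 11 at levels 12 to 18.

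VIT_05s0020g02270 on chromosome 5 ran the other way within C2, with 40745, 41348, 26798, 66892 and 57672, so that replicates 4 and 5 were its highest. Its second stage was T1, and T1 replicate 2 with 35374 lay above C2 replicate 3. VIT_17s0000g02480 had 34567, 35520, 21325, 21378 and 20501 and at most 19054 elsewhere, in T1 replicate 2. Its 5 C2 libraries all lay above the other 35.

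VIT_04s0008g06660 on chromosome 4 was among the steadiest of these, with 14800, 14245, 10969, 11739 and 10624 normalised counts in C2 and 8339, 4366 and 3582 in S. Its neighbour VIT_04s0008g06650 had 3854, 3875, 3104, 7240 and 5886 in C2 and at most 2876 elsewhere, in S replicate 1. Both had all C2 libraries above the rest, but the first was lowest in replicate 5 and the second highest in replicate 4.

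VIT_16s0115g00170 had a C2 mean of 27094 ± 5944 (SD, n = 5) and VIT_16s0022g00540 one of 12475 ± 4389 (SD, n = 5), and both had S or T1 libraries above their lowest C2 library. VIT_04s0008g03120, with 19481 ± 2552 (SD, n = 5), had only 2 C2 libraries above EP replicate 3, which held 19766. VIT_10s0003g02040 had 19671, 19974, 17687, 21596 and 10921 in C2, and T2 replicate 1 with 21928 exceeded all 5. Its peak in C2 is one of means, as T2 replicates 2 and 3 had 2557 and 3718.

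The remaining annotated members had S or C1 second. VIT_05s0020g04780 carries the terms DNA-binding transcription factor activity, nucleus and response to water deprivation. It had 1436, 1510, 1246, 640 and 358 normalised counts in C2 and 252, 0.5 and 574 in C1, so that C1 replicate 3 lay above C2 replicate 5. VIT_01s0137g00780 carries the terms ubiquitin-protein transferase activity, protein polyubiquitination and positive regulation of apoptotic process. It had 11175, 11374, 9058, 7516 and 3408 in C2 and 5043, 3961 and 411 in S.

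Members also lay side by side on the chromosomes. In the order of identifiers, 24 members formed 11 runs of direct neighbours, of which 2 held 3 genes and 9 held 2. Of the 291 neighbouring places beside members, 8.93% were held by another member, while members are 0.5005% of all genes. The order of identifiers did not enter the rule. Whether neighbours share reads as near-identical copies was not tested. By chromosome the members were spread over all 19 and the unplaced sequence, which held 12.7% of the members and 8.77% of all genes.

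One run of 3 lay on unplaced sequence. VIT_00s0301g00060 had 1428, 1435, 1032, 778 and 657 normalised counts in C2 and 244, 404 and 240 in JP, its second stage. VIT_00s0301g00080 had 3980, 4289, 2946, 1852 and 786 and also had JP second, with 520, 1249 and 856. VIT_00s0301g00070 between them had 5515, 5635, 3262, 2818 and 1762 and had T1 second. All 3 ranked the 5 C2 libraries alike, with replicate 2 highest and replicate 5 lowest.

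The other run of 3, on chromosome 1, was alike within C2. VIT_01s0010g00760 had 2426, 2506, 2481, 761 and 713 normalised counts, VIT_01s0010g00780 had 455, 432, 615, 146 and 220, and VIT_01s0010g00790 had 281, 329, 371, 117 and 166. In each, replicates 4 and 5 were the 2 lowest. Only VIT_01s0010g00790 had all 5 C2 libraries above the others, with at most 81.6 elsewhere, in S replicate 1.

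The spread between C2 libraries was the main feature of the members that the mean hides. In 26 members all 5 C2 libraries lay above the highest library of any other stage, where 0.204% of the 29839 genes with a count did so. As the rule used this contrast, nothing is read from that difference. In 53 members 4 of the C2 libraries did so, in 56 members 3, in 11 members 2, and in 4 members 1 or none. The 4, named because they are few, were VIT_06s0061g00870, VIT_04s0023g03890, VIT_10s0003g02040 and VIT_00s0183g00050. Their highest other libraries were C1 replicate 3, T2 replicate 1 for the second and the third, and S replicate 1.

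Among the 26 with all 5 libraries on top were VIT_12s0059g02710 with 469, 478, 345, 119 and 98.2 normalised counts against at most 95.3 in C1 replicate 1, and VIT_01s0011g05680 with 6258, 5968, 3980, 2216 and 1363 against at most 1097 in EP replicate 3. These 2 were named after their values were seen. VIT_02s0012g00660 varied little over the 5, with a C2 mean of 997 ± 127 (SD, n = 5).

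C2 replicates 4 and 5 were the low ones. The median member had 23.7%, 24.2%, 22.8%, 13.4% and 7.99% of its summed C2 count in replicates 1 to 5. Over the 14930 genes with a C2 mean of 100 or more the medians were 19.99%, 19.95%, 17.98%, 20.3% and 20.1%. Over the other 951 genes peaking in C2 they were 21.8%, 21.9%, 18.02%, 18.9% and 18.2%. Replicate 5 was the lowest C2 library for 101 members and replicate 4 for 39. Among the other 951 genes the lowest was replicate 3 in 376, replicate 5 in 317 and replicate 4 in 210. Among the 14930 genes it was replicate 3 in 5733, replicate 5 in 3419 and replicate 4 in 2479.

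The C2 libraries were also set against the stage that came second. Replicate 5 lay below the second stage mean in 73 members (48.7%) and replicate 4 in 30 (20%). Replicates 1, 2 and 3 lay above it in all 150. Among the other 951 genes peaking in C2, replicate 5 lay below it in 44.3%, replicate 4 in 36.2% and replicate 3 in 43.6%. The members' share was thus near that of the other genes for replicate 5 and under it for replicate 4. The median coefficient of variation over the 5 C2 libraries was 45.1% for members, 21.2% for the other 951 genes and 19.7% for the 14930. All 5 libraries entered the rule, so that these shares describe the members and are no test.

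**Figure D3:**
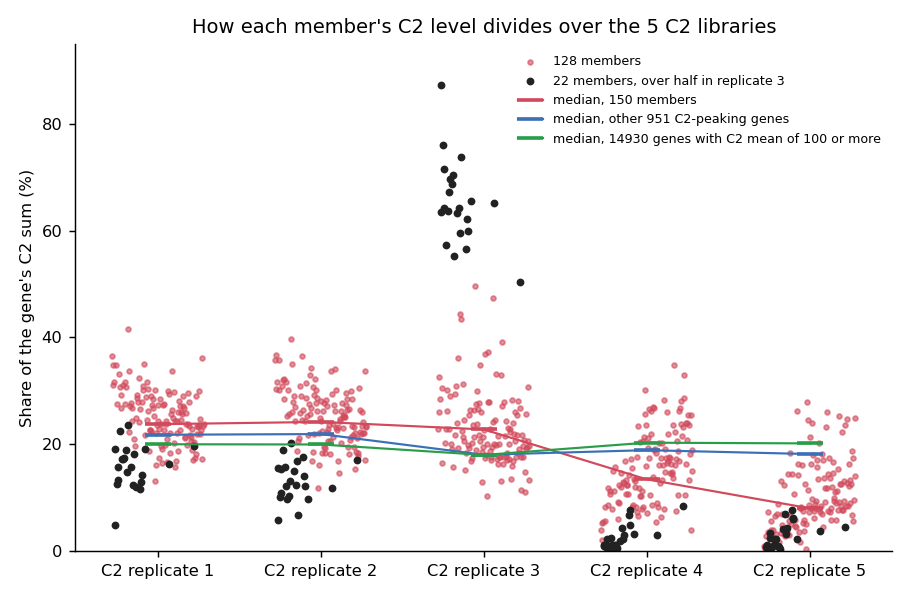
Share of each member's summed C2 count held by each of the 5 C2 libraries (percent), with black points for the 22 members with more than 50% in replicate 3. The red line of member medians falls from 22.8% in replicate 3 to 13.4% and 7.99% in replicates 4 and 5, while the green line of 14930 genes lies at 20.3% and 20.1% there.

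A group of 22 members had more than 50% of their C2 count in replicate 3 alone, a limit set after the values were seen. No member had such a share in any other C2 library. Among the other 951 genes peaking in C2, 13 had this share in replicate 3, and among the 14930 genes 69 did. In VIT_19s0015g00560 the 5 C2 libraries had 34.1, 42.0, 624, 6.0 and 8.0 normalised counts. In VIT_05s0029g00970 they had 128, 102, 769, 7.1 and 6.0. VIT_04s0023g02270 had 69.3, 56.5, 374, 5.0 and 18, and VIT_14s0006g00260 had 199, 163, 662, 11.1 and 8.0. In each, replicates 1 and 2 lay between replicate 3 and the rest, and replicates 4 and 5 lay at the level of the other stages.

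Over the 22 members this order held. Their summed normalised count was 2830, 2406, 10829, 417 and 452 in C2 replicates 1 to 5. In the other 35 libraries it ran from 168 to 1158 with a median of 452, and the highest was EI replicate 1. Replicate 1 lay above every library of the other stages in 21 of the 22 and replicate 2 in 18, but replicates 4 and 5 in none (0 of 22). Their C2 means were small, from 102 to 328 with a median of 131, and 13 had EI, PG, G1 or G2 second. Without replicate 3 only 4 of the 22 kept a C2 mean of 100 or more, although C2 stayed the highest stage for all 22.

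**Figure D4:**
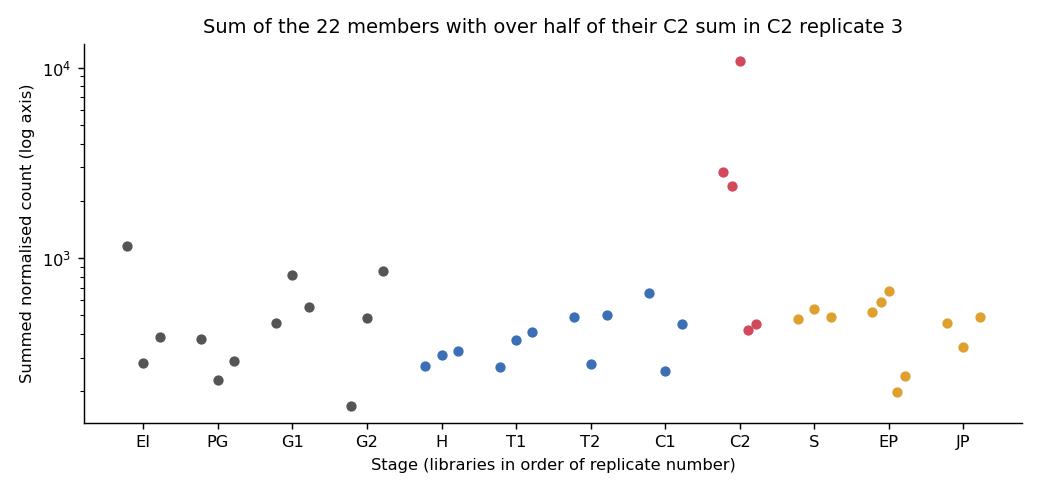
Summed normalised count of the 22 members with more than 50% of their C2 sum in C2 replicate 3, by library (log axis). C2 replicate 3 stands at 10829, C2 replicates 1 and 2 at 2830 and 2406, and C2 replicates 4 and 5 at 417 and 452 lie within the range of the other stages, 168 to 1158.

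Stages other than C2 had their own low libraries. C1 replicate 2 was the lowest C1 library for 133 of 150 members and had no count for 11, whereas C1 replicates 1 and 3 had a count for every member. S replicate 3 was the lowest S library for 108 members, H replicate 2 the lowest H library for 107, and G2 replicate 1 the lowest G2 library for 121. The same counts were not made over all genes, so that nothing particular to the members is read from them.

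Tests were run only between stages that exclude C2, by edgeR's quasi-likelihood test on the libraries of both stages with Benjamini-Hochberg adjustment over all genes tested. The rule still bounds these stages, because no other stage mean exceeded a member's C2 mean divided by 1.85. The second stage mean also entered the rule as the divisor of the ratio. It was that of S for 60 members, T2 for 13, C1 for 11, EP for 9, JP for 5 and H for 1. The tests therefore draw on values that chose the members, and their counts are no independent support. S enters 2 of the 4 comparisons and EP 2, so that neighbouring comparisons share libraries. Genes too low in both stages were left out by the filter, and a member that passed through 1 stage only had to differ between them.

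From H to T2, both in the dark without hormones, the members lay higher on the whole but few passed the test. The filter left 130 of the 150 members, of which 18 rose and 0 fell at an adjusted p below 0.05, with 49 at an unadjusted p below 0.05 in either direction and 56 called by DESeq2. Of all 21424 genes tested by edgeR, 22.7% were called, 11.2% higher and 11.5% lower. The members' share of 13.8% higher was near that background. The unadjusted edgeR p was below 0.05 in 8816 of the 21424 genes. DESeq2 called 7511 of 28927 genes and 56 of 146 members. The median log2 fold change was 1.28 over the members, 0.77 over the other genes peaking in C2 and 0.06 over all genes. Of the other genes peaking in C2, 31.6% rose.

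VIT_00s2386g00010 had 1.66, 0 and 1.99 normalised counts in H and 12.3, 63.7 and 170.7 in T2 (log2 fold change 5.98, SE 1.25, edgeR adjusted p = 0.0232). VIT_11s0052g01780 had 6.65, 4.27 and 5.47 in H and 104, 157 and 143 in T2 (log2 fold change 4.63, SE 0.36, edgeR adjusted p = 0.00402). VIT_18s0041g02140 had 3.32, 4.27 and 4.98 in H and 24.6, 45.2 and 51.0 in T2 (log2 fold change 3.27, SE 0.43, edgeR adjusted p = 0.00917). The H and T2 libraries did not overlap in any of the 3. VIT_04s0008g06660 also rose, by a log2 fold change of 2.66 (SE 0.34, edgeR adjusted p = 0.00907), and VIT_16s0115g00170 by 2.27 (SE 0.57, edgeR adjusted p = 0.0361).

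The count of called members rested on single libraries, as did the count over all genes. For members it was 1 without H replicate 1 or H replicate 2, 10 without H replicate 3 or T2 replicate 3, and 43 without T2 replicate 1. Over all genes it was 4866 with every library, 201 without H replicate 1 and 160 without H replicate 2. It was 821 without H replicate 3, 1647 without T2 replicate 3 and 10963 of 22114 without T2 replicate 1.

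From C1 to S, on either side of C2, most members did not pass the test. C1 was in the dark without hormones and S under long days on the germination medium. Of 144 members tested, 5 rose and 0 fell by the edgeR test, with 15 at an unadjusted p below 0.05 and 15 called by DESeq2. That is 3.47% higher, under the 17.8% of all 21464 genes that rose and the 20% that fell. Of the other genes peaking in C2, 8.94% rose. The unadjusted edgeR p was below 0.05 in 10602 of the 21464 genes. DESeq2 called 10335 of 29038 genes and 15 of 150 members. The median log2 fold change was 0.37 over the members, 0.32 over the other genes peaking in C2 and -0.06 over all genes.

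VIT_00s0324g00070 had 72.5, 75.6 and 85.9 normalised counts in C1 and 344, 370 and 446 in S (log2 fold change 2.24, SE 0.23, edgeR adjusted p = 0.00312). Its libraries were the tightest of the 3 with the largest changes, and C1 replicate 2 was not low for it. VIT_00s1235g00030 had 5.69, 0 and 7.42 in C1 and 63.7, 80.7 and 108 in S (log2 fold change 4.20, SE 1.00, edgeR adjusted p = 0.0209). VIT_05s0020g01040 had 8.53, 0 and 24.1 in C1 and 153, 103 and 280 in S (log2 fold change 3.97, SE 1.25, edgeR adjusted p = 0.0482). The other 2 were the large pair on chromosome 2. VIT_02s0012g00680 rose by a log2 fold change of 1.99 (SE 0.52, edgeR adjusted p = 0.0271) and VIT_02s0012g00700 by 2.00 (SE 0.58, edgeR adjusted p = 0.0380).

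The count was 18, with 12 higher and 6 lower, without C1 replicate 2, and 3 without C1 replicate 3. It was 1 without S replicate 1 or S replicate 2, and 2 without S replicate 3. Over all genes 8107 were called with every library, 8438 without C1 replicate 2 and 3640 without C1 replicate 3. Without S replicate 1, 2 or 3 the calls over all genes were 3360, 4415 and 3526.

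From S to EP, under the same light and medium, more members fell than rose, and most did not pass the test. Of 132 members tested, 45 fell and 0 rose by the edgeR test, with 61 at an unadjusted p below 0.05 and 59 called by DESeq2, all lower. That is 34.1% lower, above the 13.9% of all 20915 genes that fell, while 16.1% of all genes rose. The unadjusted edgeR p was below 0.05 in 8858 of the 20915 genes, 4104 of them lower. DESeq2 called 8048 of 28807 genes, 3712 of them lower, and 59 of 150 members. The other genes peaking in C2 fell in 30.6%, close to the members' share. The median log2 fold change was -1.57 over the members, -0.71 over the other 951 genes and 0.08 over all genes.

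VIT_13s0067g03540 had 113, 89.5 and 22.6 normalised counts in S, and 0 in EP replicates 1 to 4 and 0.863 in replicate 5 (log2 fold change -7.09, SE 0.84, edgeR adjusted p = 0.000689). With 133 counts in S and 3 in EP, the ratio per size factor was 146, with a 95% counting interval from 48.7 to 715 (exact Clopper-Pearson). VIT_11s0052g01780 had 161, 227 and 108 in S and 18.4, 13.4, 0, 1.59 and 2.01 in EP (log2 fold change -5.26, SE 0.80, edgeR adjusted p = 0.00181). Neither gene's libraries overlapped. VIT_07s0031g00720 had 533, 490 and 4.52 in S and 33.2, 53.6, 4.71, 3.19 and 2.88 in EP (log2 fold change -4.71, SE 1.34, edgeR adjusted p = 0.0263), and S replicate 3 lay within its EP range.

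The annotated VIT_09s0002g02450 fell by 3.79 on the log2 scale (SE 0.30, edgeR adjusted p = 0.000221) and its neighbour VIT_09s0002g02460 by 1.89 (SE 0.57, edgeR adjusted p = 0.0329). VIT_01s0137g00780 fell by 2.14 (SE 0.67, edgeR adjusted p = 0.0375). Among the members with the most counts, VIT_16s0022g00540 fell by 1.80 (SE 0.30, edgeR adjusted p = 0.00273), whereas VIT_18s0001g03640 had a log2 fold change of 0.00 (SE 1.11, edgeR adjusted p = 1.00).

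Without EP replicates 4 and 5, which stood apart, 38 members fell and 2 rose, 34 of the falls being among the 45 above, and the members' median was -0.99. This alternative was chosen after seeing the data, and over all genes it gave 4396 higher and 4134 lower. The number of members called was 24 without S replicate 1 and 25 without S replicate 2. Over all genes 6277 were called with every library, 3612 without S replicate 1 and 3635 without S replicate 2.

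From EP to JP few members passed the test. Of 115 members tested, 4 rose and 6 fell by the edgeR test, with 45 at an unadjusted p below 0.05 and 39 called by DESeq2. That is 3.48% higher and 5.22% lower, near the 2.46% and 3.08% of all 21615 genes, of which 5.54% were called in all. The unadjusted edgeR p was below 0.05 in 4936 of these genes. DESeq2 called 3081 of 28542 genes and 39 of 150 members. The median log2 fold change was -0.35 over the members, -0.26 over the other genes peaking in C2 and 0.00 over all genes.

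The 3 largest falls went to a few counts in JP. VIT_10s0003g02040 had 1413, 1551, 4854, 113 and 568 normalised counts in EP and 13.5, 3.50 and 2.31 in JP (log2 fold change -7.98, SE 1.43, edgeR adjusted p = 0.0186). VIT_04s0008g06660 had 2140, 2391, 4958, 78.6 and 158 in EP and 12.3, 13.996 and 5.77 in JP (log2 fold change -7.52, SE 1.61, edgeR adjusted p = 0.0307). VIT_16s0115g00170 had 1849, 1904, 5998, 117 and 211 in EP and 18.5, 12.2 and 2.31 in JP (log2 fold change -7.52, SE 1.60, edgeR adjusted p = 0.0301). All 3 also had a far lower level in EP replicates 4 and 5 than in the other EP libraries, and no EP library overlapped JP. These 3 had between 10624 and 33042 in C2, so that JP held them at a small part of their C2 level.

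The 3 largest rises started from low EP levels. VIT_08s0007g04500 had 18.4, 17.9, 33.0, 29.2 and 7.77 normalised counts in EP and 66.5, 310 and 150 in JP (log2 fold change 3.11, SE 0.58, edgeR adjusted p = 0.0210). VIT_18s0001g11680 had 77.5, 49.2, 0, 24.97 and 16.4 in EP and 161, 371 and 211 in JP (log2 fold change 2.97, SE 0.70, edgeR adjusted p = 0.0418). VIT_09s0002g02450 had 229, 304, 118, 200 and 198 in EP and 413, 1429 and 856 in JP (log2 fold change 2.10, SE 0.40, edgeR adjusted p = 0.0217). That gene thus fell from S to EP and rose from EP to JP, with the same EP libraries in both comparisons.

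The count from EP to JP rested on the EP and JP libraries. It was 62, with 11 higher and 51 lower, without EP replicates 4 and 5 (chosen after seeing the data), 6 without EP replicate 1 and 20 without EP replicate 5. Without JP replicate 1 it was 2. Without JP replicate 2 or JP replicate 3 edgeR called 0 members, with 31 and 26 at an unadjusted p below 0.05. Over all genes 1198 were called with every library and 9426 without EP replicates 4 and 5. The calls over all genes were 580 without EP replicate 1 and 2444 without EP replicate 5. Without JP replicate 1, 2 or 3 they were 166, 112 and 56.

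**Figure D5:**
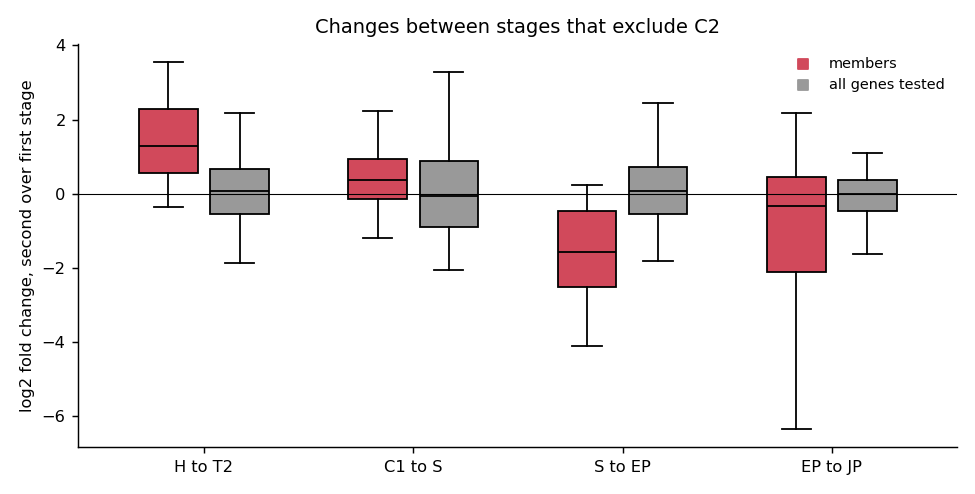
Log2 fold change of the second stage over the first in the 4 comparisons without C2, for the members tested (red) and all genes tested (grey). Boxes span the middle 50% with the median as a line, and whiskers run from the 5th to the 95th percentile. The member medians are 1.28, 0.37, -1.57 and -0.35.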

How the data were processed

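The authors deposited raw counts, whole numbers of reads per gene and library, not normalised. Per the study's methods, paired-end reads were checked in FastQC, aligned with BBMap to the grapevine 12X assembly and counted per open reading frame in R. The labels name FastQC 0.11.7, SAMtools 1.11 and R 4.0.4. Strand and the treatment of reads that map to several genes are not given in the sources used here.

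Members were found with median-of-ratios size factors computed over all 40 libraries. The members and lists were chosen with earlier results of these data known. Comparisons used edgeR 4.0.16 (R 4.3.3; TMM factors, filterByExpr, glmQLFit and glmQLFTest) on the libraries of both stages, with an adjusted p limit of 0.05, and DESeq2 1.42.0 as an alternative. Each edgeR SE was derived as the absolute log2 fold change over the square root of the test's F statistic, and was not estimated directly. The rule and the edgeR test were tested on simulated data. The authors call the samples biological replicates. Whether they came from separate cultures is not given, so that p-values measure the spread between these samples.

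Named genes were the 10 members with the highest ratio and the 10 with the highest C2 mean, the 3 called members with the largest change per comparison and direction, members in runs of 3 or more neighbours, annotated members, and 2 genes on each side of the limit. Others were named after their values were seen. Gene ontology terms and gene ages came from the study's tables, of which only a part was at hand, so that no overlap was tested. Counting intervals cover counting error only. No sequence is shown because no identifier matched a reference.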

Additional observations from a re-analysis of the deposited data

Results flagged for a closer look

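Among the named members, 6 readings stood apart from the other 4 libraries of their stage by Dixon's ratio (the gap to the nearest library over the whole range, with a critical value of 0.71 for 5 libraries). Chance passes this in about 1 of 20 groups of unselected values, and 42 named members were checked in each of C2 and EP. The C2 values entered the rule, so that this rate does not hold there and nothing is read from passes in C2. In C2, replicate 3 was high in VIT_19s0015g00560 (ratio 0.942, 624 normalised counts), VIT_05s0029g00970 (0.841, 769) and VIT_04s0023g02270 (0.826, 374), which belong to the 22 members with more than 50% of their C2 count in that library. C2 replicate 4 was high in VIT_13s0067g03540 (0.724, 412). In EP, replicate 2 was high in VIT_01s0011g02360 (0.737, 17.9), and replicate 5 was the only EP library with any count in VIT_13s0067g03540 (1, with 0.863 normalised counts). With 0 in the other 4 libraries that ratio is 1 whatever the count. Here it rested on 3 counts in the library with the highest total, so that nothing is read from it.

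Over all 150 members, 28 passed the critical value in C2. Replicate 3 was the high library in 20 of them and replicate 5 the low one in 6. In EP 14 members passed, 10 of them with replicate 3 high.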

How the results depend on the processing

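Applying the rule under other settings kept between 103 and 142 of the 150 members, except that a minimum C2 mean of 50 kept 75. Leaving out 1 C2 library kept 125 to 138, and without C2 replicate 3 only 2 of the 22 members resting on it were kept. Library totals in place of size factors kept 103, and C2 stayed the highest stage for all 150 there. With C2 replicates 1 and 2 left out together, 149 did so. Of the members with all 5 C2 libraries on top, 26 by size factors became 24 by TMM factors.

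Leaving out 1 library each gave 1 to 43 called members for T2 against H, 1 to 18 for S against C1, 24 to 51 for EP against S and 0 to 20 for JP against EP. The calls over all genes moved too, as given above for each comparison. At an unadjusted p below 0.05 the counts for T2 against H, S against C1 and JP against EP were 49, 15 and 45. DESeq2 gave 56, 15 and 39, and 1 edgeR model of all 40 libraries gave 37, 12 and 23. That model called 7370, 11664 and 2385 of all 24862 genes. For JP against EP the count was 62 without EP replicates 4 and 5 and 5 with EP replicates 1 and 2 summed, both chosen after seeing the data. The cause was not tested.

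In no comparison were the deviations of samples with the same number positively correlated for every number, so that the numbers are not taken as pairs. With the replicate number as a block, edgeR called 0 members for T2 against H (41 at an unadjusted p below 0.05), 2 for S against C1, 46 for EP against S and 61 for JP against EP. Over all genes the block gave 0, 3607, 8562 and 8729 calls in the same order. For EP against S each number correlated best with its own (0.23, -0.05 and 0.11). The block there gave 3 members higher and 43 lower, with a member median of -0.87. Of 215 refits of the named changes, 164 stayed past the threshold, 51 did not and none (0) reversed. Of 279 recomputed ratios of named genes, 8 moved by more than the C2 SD, among them VIT_01s0011g02360 with 54.4 by stage medians. Between TMM and DESeq2 factors the median over all genes moved by at most 0.0279 (log2). Depth limits the members with C2 means near 100 and the genes with few counts in H, C1, EP and JP.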
